A study of Mus musculus with 6 samples.

Results

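The core circadian clock genes are the transcripts of the feedback loop that keeps daily time in nearly every mammalian cell. They were followed here as 10 genes chosen by symbol, namely Arntl, Clock, Per1, Per2, Per3, Cry1, Cry2, Nr1d1, Nr1d2 and Dbp, among the 19458 genes listed for each library. All 10 were found in all 6 libraries and all 10 had enough counts to be tested. RNA-seq libraries had been made from the gastrocnemius, a calf muscle rich in fast fibres, of C57BL/6 mice aged 9 weeks. The knockout (KO) group carried the genotype tmem182-/- (3 libraries), and the wild-type (WT) group carried no listed allele (3 libraries); Tmem182 encodes a membrane protein of striated muscle. No treatment and no time of day is given in the labels, and whether the deletion was confined to muscle is not stated in them.

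ARNTL (also called BMAL1) and CLOCK pair up and bind E-box sequences, where they switch on the Per and Cry genes, the nuclear receptor genes Nr1d1 and Nr1d2, and Dbp. PER and CRY proteins then inhibit the ARNTL and CLOCK pair, while NR1D1 and NR1D2 (REV-ERB alpha and beta) repress Arntl through a different element. In mouse peripheral tissues Arntl transcripts peak from late night to early morning, with Npas2, Clock, Nfil3 and Cry1 close to that phase, and Nr1d1, Nr1d2, Dbp, Cry2 and the Per genes peak from midday to early night. The balance of these phase groups in a library therefore bears on when in the daily cycle the tissue was taken, and it was read in each library below.

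The start-site sequences of 4 members are shown because they hold letters of the kind through which the loop is known to act on its own genes. RefSeq promoter entries on GRCm38.p6 matched 9 of the 10 members (Per2 had none), and the 250 bases before the annotated start were searched on both strands. Capitals mark an E-box (CACGTG), an E-prime box (CACGTT, or AACGTG on the other strand) or a D-box (TTATGTAA or TTACATAA), the element that DBP binds. The windows are chr11:69098699-69098948 on the plus strand, chr10:85185055-85185304 on the minus strand, chr11:98775378-98775627 on the minus strand and chr4:151044666-151044915 on the minus strand.
Per1: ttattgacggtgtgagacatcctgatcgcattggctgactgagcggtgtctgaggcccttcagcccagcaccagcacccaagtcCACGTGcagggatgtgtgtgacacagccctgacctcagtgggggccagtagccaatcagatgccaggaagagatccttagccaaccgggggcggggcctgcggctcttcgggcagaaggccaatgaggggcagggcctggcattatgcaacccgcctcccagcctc
Cry1: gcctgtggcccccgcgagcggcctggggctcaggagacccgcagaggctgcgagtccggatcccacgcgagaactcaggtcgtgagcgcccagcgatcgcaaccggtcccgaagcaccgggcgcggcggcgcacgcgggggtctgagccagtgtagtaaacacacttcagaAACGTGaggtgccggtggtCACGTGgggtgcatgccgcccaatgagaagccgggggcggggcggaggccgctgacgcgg
Nr1d1: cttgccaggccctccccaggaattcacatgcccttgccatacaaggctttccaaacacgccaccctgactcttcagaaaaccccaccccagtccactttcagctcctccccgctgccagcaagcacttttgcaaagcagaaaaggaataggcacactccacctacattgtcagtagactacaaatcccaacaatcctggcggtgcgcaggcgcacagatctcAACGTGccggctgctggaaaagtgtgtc
Per3: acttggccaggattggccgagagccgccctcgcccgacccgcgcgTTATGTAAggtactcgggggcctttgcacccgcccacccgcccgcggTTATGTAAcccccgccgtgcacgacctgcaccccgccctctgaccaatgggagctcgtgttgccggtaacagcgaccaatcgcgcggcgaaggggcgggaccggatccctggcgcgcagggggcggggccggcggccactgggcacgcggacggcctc
Per1 held an E-box from 166 to 161 bases before its first start, and Cry1 held an E-box from 60 to 55 bases and an E-prime box from 79 to 74 bases before its start, with no overlap. Nr1d1 held an E-prime box from 28 to 23 bases before its start, and Cry2 held an E-prime box as well. Per3 held a pair of D-boxes, from 205 to 198 and from 158 to 151 bases before its start. An E-box was present in 6.02%, an E-prime box in 3.85% and a D-box in 0.819% of all 32851 windows of this length. Within these 250 bases none of the 9 members held TAGGTCA or TGGGTCA (5.38% of all windows), core letters of the element that NR1D1 reads. Those letters were chosen after a broader pattern had been tried. Other forms of the element are not counted here, so the 9 members, Arntl among them, are not shown to lack it. None held a cyclic AMP element TGACGTCA (1.55%). Bases after the start were not searched, so a gene may hold these elements outside its window. A match of letters is a description of the sequence and was not tested for binding.

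The labels were checked on the deleted gene and on the tissue. Tmem182 was at 6.23, 4.30 and 2.17 FPKM (fragments per length of transcript and depth of library) in KO libraries, against 147.48, 121.39 and 120.97 FPKM in WT libraries. The log2 fold change of Tmem182 was -5.02 (SE 0.30, edgeR adjusted p = 0.00391). All 12 defining markers of skeletal muscle, such as Acta1 and Ckm, were present, and their sum lay between 84328 and 113680 FPKM in KO muscle and between 105611 and 120199 FPKM in WT muscle. Total expected counts ranged from 16212341 to 18672630. KO library 1 stood apart: its 10 most abundant genes held 22.0% of its counts, against 28.2% to 31.9% in the other 5 libraries, and its TMM scaling factor was 1.19, against 0.933 to 1.04. Values on the log2 CPM scale (counts set to a common depth after that scaling) and FPKM values therefore differ most for this library. The source labels of KO libraries 2 and 3 name other Tmem numbers than their genotype labels, and the protocol text speaks of cultured muscle cells; the genotype and tissue labels were followed. Nothing in the labels ties the libraries to separate animals, and the p-values cover no more than the spread between these samples.

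No core clock gene passed the test for a difference between the genotypes. By edgeR's quasi-likelihood test 0 of 10 members passed an adjusted p of 0.05, where 1 of 12774 genes tested (0.00783%), Tmem182, did; no gene did without KO library 2 or without WT library 3. By unadjusted p under 0.05, 1 member was lower in KO muscle (Per1) and 0 were higher, where 1.48% of all genes tested were lower and 2.07% higher (3.55% in either direction). DESeq2 called 0 members of 6 genes called in all, and 1 member had an unadjusted p under 0.05 by DESeq2. The 2 groups of libraries overlapped for all 10 members, where they did not overlap for 9.18% of all genes tested. The KO mean was lower for 8 of the 10 members, where it was lower for 48.9% of all genes tested; without KO library 1 it was lower for 4 of the 10, and with library quality weights for 5. The members' median log2 fold change, KO over WT muscle, was -0.11, against 0.0046 over all genes tested, and without KO library 1 the members' median was 0.05.

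**Figure D1:**
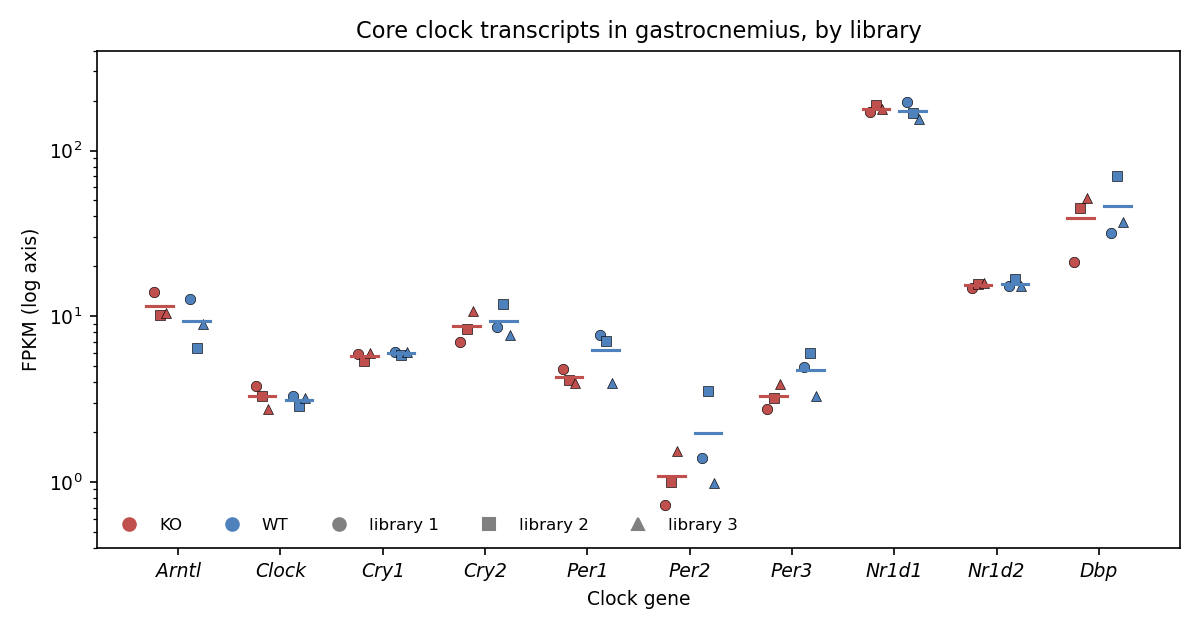
FPKM of each core clock gene (logarithmic axis) in KO libraries (red, left of each pair) and WT libraries (blue, right); symbols give the library number and horizontal lines the group means. The groups overlap for every gene, and WT library 2 (square) lies at the top for Per2 and Dbp and at the bottom for Arntl.

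On the per-length scale of FPKM the members had the same order of means in both genotypes, except that Cry1 lay above Per1 in KO muscle and below it in WT muscle. Nr1d1, the repressor REV-ERB alpha, was by far the most abundant, at 179.1 ± 9.71 FPKM in KO muscle and 172.4 ± 20.7 FPKM in WT muscle (SD, n = 3 each). Dbp followed at 39.4 ± 16.1 FPKM in KO muscle and 46.4 ± 21.0 FPKM in WT muscle, then Nr1d2 at 15.5 ± 0.62 FPKM in KO muscle and 15.7 ± 0.88 FPKM in WT muscle. Arntl and Cry2 overlapped in their ranges over the 6 libraries, as did each neighbouring pair along the order Cry1, Per1, Per3, Clock and Per2. Nr1d1, Dbp and Nr1d2 were each separated from the next lower gene in all 6 libraries, and Cry2 lay above Cry1 in all 6. The rarest was Per2, at 1.09 ± 0.41 FPKM in KO muscle and 1.97 ± 1.37 FPKM in WT muscle, from 68 to 375 expected counts per library.

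Of the activators, Arntl was at 13.97, 10.21 and 10.50 FPKM in KO libraries, against 12.69, 6.43 and 8.94 FPKM in WT libraries. WT library 2 was the lowest of the 6, and the groups overlapped. On the log2 scale Arntl differed by 0.24 (SE 0.20, 95% interval -0.24 to 0.71, edgeR adjusted p = 0.994; two-sided exact permutation p = 0.5, where 3 against 3 libraries allow no less than 0.1). Without WT library 2 the difference in Arntl was 0.03. Arntl (Entrez 11865) is at chr7:113207465-113314126 (GRCm38, plus strand), and an antisense gene, Gm45355, shares 33 of its exonic bases. Its partner Clock was at 3.78, 3.29 and 2.77 FPKM in KO muscle, against 3.28, 2.86 and 3.23 FPKM in WT muscle. Clock was among the steadier genes: its log2 fold change was -0.01 (SE 0.10), and its spread within the groups lay at the 18 percentile of all genes tested.

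The period genes, whose proteins form the inhibitory arm with the cryptochromes, had the largest log2 fold changes of the members in size. Per1 was at 4.82, 4.13 and 3.95 FPKM in KO libraries, against 7.70, 7.06 and 3.93 FPKM in WT libraries. WT libraries 1 and 2 were high, while WT library 3 lay with KO libraries. The log2 fold change of Per1 was -0.59 (SE 0.21, 95% interval -1.07 to -0.11, unadjusted p = 0.0225 and adjusted p = 0.994 by edgeR; exact permutation p = 0.3). Per1 (Entrez 18626) is at chr11:69095217-69109960 (plus strand), and no other annotated gene overlaps it. Per2 was at 0.73, 1.0 and 1.54 FPKM in KO libraries, against 1.39, 3.53 and 0.99 FPKM in WT libraries. WT library 2 stood above the other 5, which overlapped by genotype. On the log2 scale Per2 differed by -0.89 (SE 0.52, 95% interval -2.10 to 0.31, edgeR adjusted p = 0.994). Without WT library 2 the difference in Per2 was -0.15, and without both this library and KO library 1 it was 0.13. Per3 was at 2.75, 3.23 and 3.92 FPKM in KO muscle, against 4.97, 5.99 and 3.28 FPKM in WT muscle. Its highest values were again those of WT libraries 1 and 2, and it differed by -0.54 on the log2 scale (SE 0.27, 95% interval -1.17 to 0.10, edgeR adjusted p = 0.994), or -0.29 without WT library 2 and -0.07 without both.

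The cryptochromes differed from each other in how much they varied. Cry1 stayed between 5.36 and 6.00 FPKM in KO muscle and between 5.83 and 6.06 FPKM in WT muscle, with a log2 fold change of -0.05 (SE 0.13). Cry2 was at 6.94, 8.39 and 10.68 FPKM in KO libraries, against 8.58, 11.78 and 7.67 FPKM in WT libraries, with a log2 fold change of -0.15 (SE 0.26). WT library 2 and KO library 3 were the highest for Cry2. A noncoding gene, D930015M05Rik, shares 295 exonic bases with Cry2 on the other strand; whether reads were counted by strand is unknown here.

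Both nuclear receptor genes varied little in FPKM. On the log2 CPM scale their spread within the groups was near the middle of all genes tested, at the 46.5 percentile for Nr1d1 and 48.5 for Nr1d2. Nr1d1 was at 170.03, 189.34 and 177.82 FPKM in KO libraries, against 194.95, 167.99 and 154.32 FPKM in WT libraries (log2 fold change 0.0069, SE 0.15, 95% interval -0.35 to 0.36). Its exons share 263 bases with Thra, a thyroid hormone receptor gene on the other strand, which was at 38.1 ± 1.92 FPKM in KO muscle and 42.6 ± 5.01 FPKM in WT muscle (SD, n = 3 each). Nr1d2 spanned 14.77 to 15.95 FPKM in KO muscle and 15.19 to 16.72 FPKM in WT muscle (log2 fold change -0.08, SE 0.14). The small differences in Clock, Cry1, Cry2, Nr1d1 and Nr1d2 each changed sign when single libraries were left out.

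Dbp, the D-box transcription factor that carries the clock's signal to its output genes, varied most after Per2. It was at 21.16, 45.08 and 51.87 FPKM in KO libraries, against 31.59, 70.48 and 37.17 FPKM in WT libraries. KO library 1 was the lowest and WT library 2 the highest, 3.33-fold apart, while among the other 4 libraries both KO values lay above both WT values. On the log2 scale Dbp differed by -0.26 (SE 0.45, 95% interval -1.31 to 0.79, edgeR adjusted p = 0.994; exact permutation p = 0.7). Its direction turned over without KO library 1 (0.09) and without WT library 2 (0.19). Dbp (Entrez 13170) is at chr7:45705088-45710203 (plus strand). Its exons share 539 bases with Sphk2 on the other strand, a sphingosine kinase gene that lay between 8.0 and 11.29 FPKM in KO muscle and between 8.76 and 11.05 FPKM in WT muscle.

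**Figure D2:**
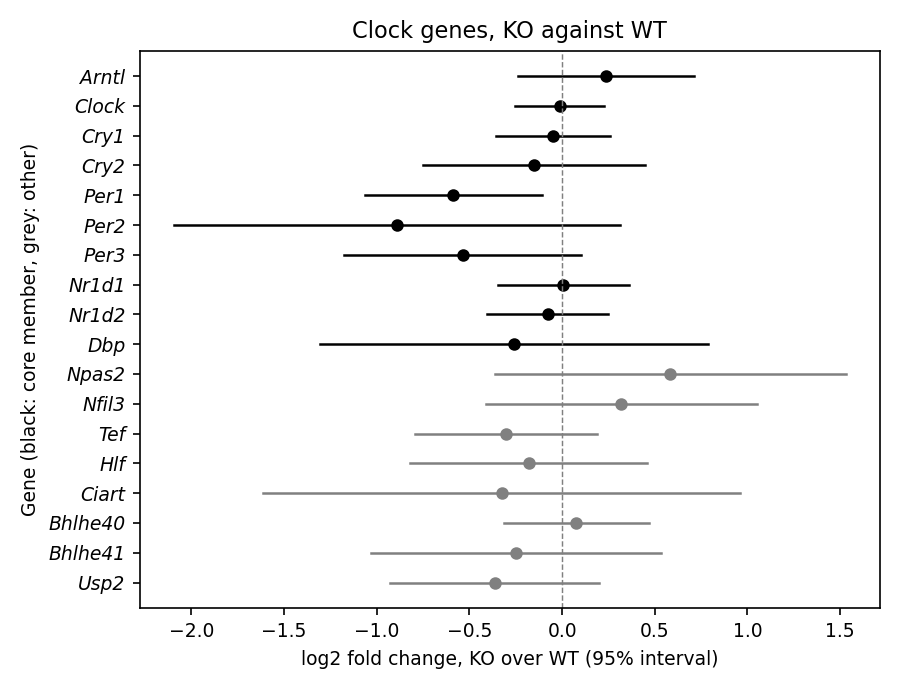
Log2 fold change, KO over WT muscle, with its 95% interval from edgeR, for the 10 core members (black) and 8 other clock genes of known phase (grey). The intervals of all but Per1 include 0, and Per1 had an adjusted p of 0.994; those of Per2, Ciart and Dbp are among the widest.

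The spread between libraries of the same genotype was large for some members and not for others. The pooled within-group SD of log2 CPM was 0.82 for Per2 and 0.77 for Dbp, at the 97.1 and 96.6 percentiles of all genes tested. Per3 and Cry2 followed at the 86.3 and 83.6 percentiles, Per1 and Arntl at the 74.4 and 73.4 percentiles, and Nr1d2, Nr1d1, Cry1 and Clock at the 48.5, 46.5, 39.7 and 18 percentiles. Among other clock genes of known phase, Ciart, a repressor of the ARNTL and CLOCK pair, lay at the 97.8 percentile. Npas2, a stand-in for CLOCK, lay at the 93.2 percentile, at a low level of 0.24 to 1.22 FPKM. Bhlhe41, Nfil3, Hlf, Usp2, Tef and Bhlhe40 lay at the 91.8, 89.3, 86.7, 79.5, 74.0 and 59.6 percentiles.

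The spread had a pattern by library. On the log2 CPM scale all 7 day-to-evening members were lowest in KO library 1, and 6 of the 7 were highest in WT library 2, the exception being Nr1d1. Both extremes together held for 6 of these 7 members, where they held for 11.9% of all genes tested. In FPKM, which does not carry the TMM scaling, 5 of the 7 (Per2, Per3, Cry2, Nr1d2 and Dbp) were lowest in KO library 1 and highest in WT library 2, where 3.23% of all genes tested were. Of the late-night-to-morning members, Arntl was lowest in WT library 2 on both scales, while Clock was lowest in KO library 3 on both scales and Cry1 in KO library 1 by log2 CPM and KO library 2 by FPKM.

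**Figure D3:**
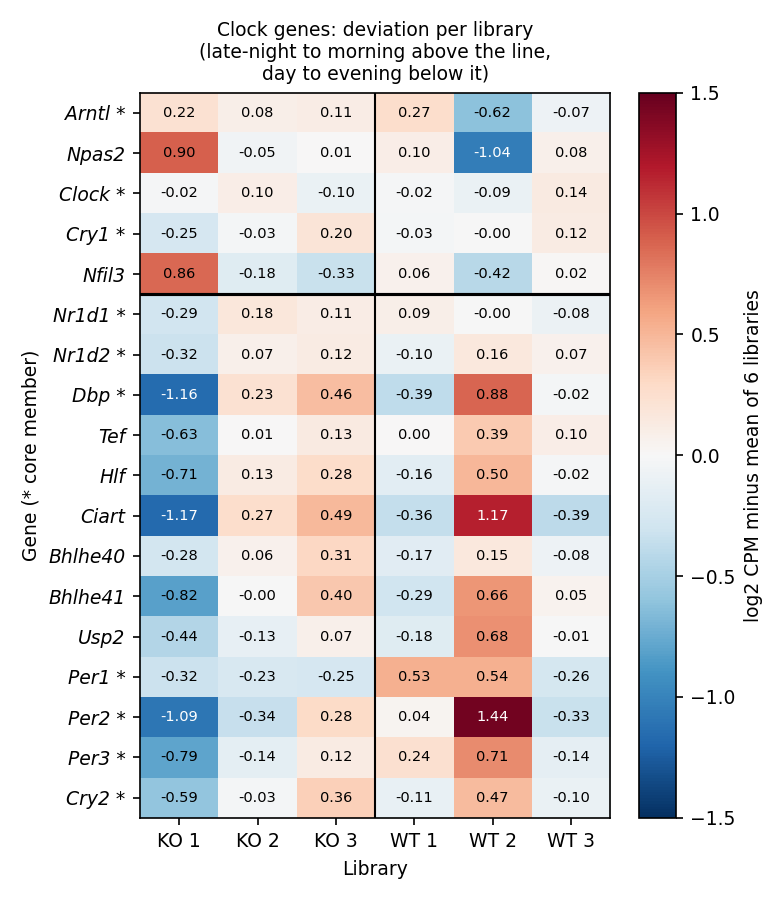
Deviation of log2 CPM from the mean of the 6 libraries for late-night-to-morning genes (above the line) and day-to-evening genes (below it), with KO libraries on the left. Below the line KO library 1 is negative in all 13 rows; WT library 2 is highest in 11 of those 13 rows, and above the line Arntl, Npas2 and Nfil3 are lowest there.

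The mean deviation of the day-to-evening members was -0.65, -0.04 and 0.17 in KO libraries 1, 2 and 3, against 0.04, 0.60 and -0.13 in WT libraries 1, 2 and 3. That of the late-night-to-morning members was -0.01, 0.05 and 0.07 in KO libraries, against 0.07, -0.24 and 0.06 in WT libraries. Their difference, a phase score in log2 units that is high when evening genes are high, was -0.64, -0.09 and 0.10 in KO muscle, against -0.03, 0.84 and -0.19 in WT muscle. KO library 1 thus had the lowest score and WT library 2 the highest, and the other 4 libraries lay within -0.19 to 0.10. The mean score was -0.21 ± 0.38 in KO muscle and 0.21 ± 0.55 in WT muscle (SD, n = 3 each), a difference of -0.42 that is smaller than the spread within WT muscle. No p is given for a score over members chosen with results known. Without KO library 1 and WT library 2 the difference was 0.11. Time of collection was not tested as a source of this spread, since the labels give none.

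Ratios within a library do not depend on how libraries are scaled. The FPKM ratio of Dbp to Arntl was 1.51, 4.42 and 4.94 in KO libraries, against 2.49, 10.96 and 4.16 in WT libraries. The ratio of Per2 to Arntl was 0.0523, 0.0979 and 0.147 in KO libraries, against 0.11, 0.549 and 0.111 in WT libraries. Both ratios were lowest in KO library 1 and highest in WT library 2. The ratio of Per1 to Arntl was 0.345, 0.405 and 0.376 in KO muscle, against 0.607, 1.10 and 0.44 in WT muscle. For Per1 to Arntl the groups of libraries did not overlap; this ratio was singled out after its values were seen, and 3 against 3 libraries allow an exact permutation p of no less than 0.1.

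Other clock genes of known phase had the same libraries at the extremes. Their list, like the members, was chosen with earlier results of these data known, so it is no independent check. Of 6 day-to-evening genes, all 6 were lowest in KO library 1 and 5 highest in WT library 2 by log2 CPM, with Bhlhe40 highest in KO library 3. Of all genes tested, 27.9% were lowest in KO library 1 and 22.4% highest in WT library 2 on that scale. Ciart was at 1.03, 2.83 and 3.15 FPKM in KO libraries, against 1.69, 4.97 and 1.61 FPKM in WT libraries. Hlf and Tef make up with Dbp the family of proline- and acid-rich leucine zipper factors; for Hlf the log2 fold change was -0.18 (SE 0.27) and for Tef -0.30 (SE 0.21). Bhlhe41, an E-box repressor, was at 9.45, 13.41 and 17.47 FPKM in KO muscle, against 11.96, 21.22 and 13.62 FPKM in WT muscle. The late-night-to-morning genes Npas2 and Nfil3 were both highest in KO library 1 and lowest in WT library 2 on the FPKM and log2 CPM scales. Of all genes tested, 62.2% were highest in KO library 1 and 25.1% lowest in WT library 2 in FPKM. By log2 CPM these shares were 29.9% and 22.7%. Npas2 was at 1.22, 0.50 and 0.51 FPKM in KO muscle, against 0.61, 0.24 and 0.53 FPKM in WT muscle. Nfil3, a D-box repressor that opposes DBP, was at 30.08, 11.54 and 10.16 FPKM in KO muscle, against 15.22, 10.03 and 13.22 FPKM in WT muscle. The score computed from these 8 genes alone was -1.55, 0.18 and 0.44 in KO libraries, against -0.28, 1.32 and -0.11 in WT libraries.

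**Figure D4:**
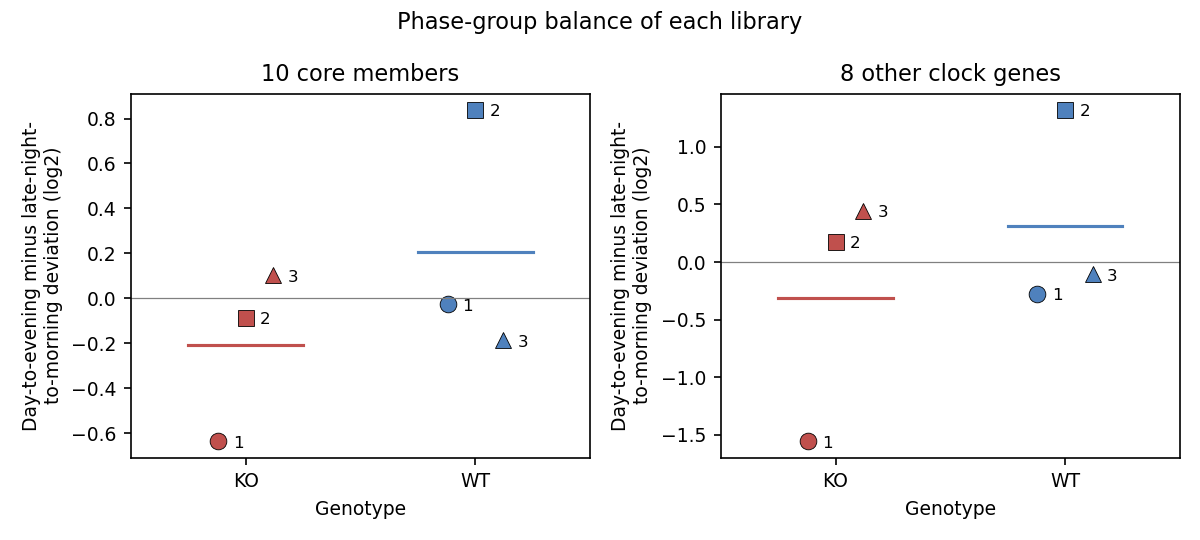
Phase score of each library (log2 units, day-to-evening minus late-night-to-morning mean deviation) from the 10 core members (left) and from 8 other clock genes (right); numbers mark libraries and lines the group means. KO library 1 is lowest and WT library 2 highest in both panels, at -0.64 and 0.84 for the members and -1.55 and 1.32 for the other genes.

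KO library 1 and WT library 2 also differed in markers of other cell types, and the part of these in the clock pattern was not tested. In FPKM 62.2% of all genes tested were highest in KO library 1 and 25.1% lowest in WT library 2, the shares beside which the counts of markers of other cell types stand. Of the 12 skeletal muscle markers, 9 were lowest in KO library 1 and 5 highest in WT library 2, where 7.23% and 13.3% of all genes tested were. In bulk tissue, fewer cells of a type and less RNA per cell cannot be told apart. The summed level of 7 Schwann cell markers was 312.8, 50.8 and 89.6 FPKM in KO libraries, against 206.2, 20.4 and 39.4 FPKM in WT libraries; all 7 were highest in KO library 1 and lowest in WT library 2 in FPKM. The sum of 8 endothelial markers ran from 76.5 to 172.1 FPKM in KO muscle and from 79.5 to 128.9 FPKM in WT muscle, with all 8 highest in KO library 1 and 3 lowest in WT library 2. The sum of 7 fibro-adipogenic progenitor markers ran from 193.9 to 378.6 FPKM in KO muscle and from 158.1 to 346.9 FPKM in WT muscle, with 6 highest in KO library 1 and 4 lowest in WT library 2. All 8 macrophage markers and all 7 tested adipocyte markers were highest in KO library 1, with sums of 22.6 to 73.2 and 111.9 to 284.5 FPKM in KO muscle against 19.9 to 28.6 and 91.5 to 161.9 FPKM in WT muscle. Slow fibre markers, 10 in all, summed to 2684, 1849 and 102.3 FPKM in KO libraries and 809.8, 94.4 and 673.0 FPKM in WT libraries. All 10 were highest in KO library 1, and 4 were lowest in WT library 2. Tendon markers, 6 in all, summed to 73.7 to 212.5 FPKM in KO libraries and 81.8 to 218.9 FPKM in WT libraries, and 6 blood and erythroid markers to 444.5 to 1896 FPKM in KO libraries and 793.8 to 1100.2 FPKM in WT libraries. Of the tendon markers 2 were highest in KO library 1 and 3 lowest in WT library 2. All 5 tested blood and erythroid markers were highest in KO library 1 and lowest in KO library 2. No marker of these lists was at 0 in any library.

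Dbp was set against each of the other 9 members across the 6 libraries, on the log2 CPM scale, where genes of a library share its depth and its scaling factor. Nr1d2 followed Dbp most closely, with r = 0.97 (two-sided exact permutation p = 0.00139, or 0.00625 adjusted over the 9 relations) and rho = 1 (exact permutation p = 0.00278, adjusted 0.0125), over a range of only 14.77 to 16.72 FPKM. Cry2 had r = 0.96 and rho = 1, with the same exact permutation p-values. The members were chosen with earlier results known, and these p-values take no account of shifts that many genes of a library share. Of 10329 genes, 372 exceeded r = 0.95 with Dbp. Without KO library 1 and WT library 2, the libraries farthest from the median of Dbp, r was 0.94 for Nr1d2 and 0.80 for Cry2. In FPKM rho was 1 for Nr1d2 and 0.83 for Cry2. Per2 and Per3 had r = 0.86 and r = 0.83 (exact permutation p = 0.0403 and 0.0528, adjusted 0.119 for both; rho = 0.77 and 0.60, with exact permutation p = 0.103 and 0.242). Without those 2 libraries r was 0.21 for Per2 and -0.35 for Per3, so these relations rest on them. Arntl had r = -0.72 (exact permutation p = 0.119, adjusted 0.188) and rho = -0.71 (exact permutation p = 0.136, adjusted 0.306), and without those 2 libraries r was -0.39. The remaining 4 members, Clock, Per1, Cry1 and Nr1d1, had r between -0.23 and 0.69, with no exact permutation p below 0.125. On the log2 FPKM scale r was -0.90 for Clock, 0.08 for Per1, -0.25 for Cry1 and -0.04 for Nr1d1. The relation of these 4 members to Dbp thus depended on the scale. For Arntl, Per2, Per3, Cry2 and Nr1d2 r was -0.87, 0.83, 0.65, 0.90 and 0.97 on the log2 FPKM scale.

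**Figure D5:**
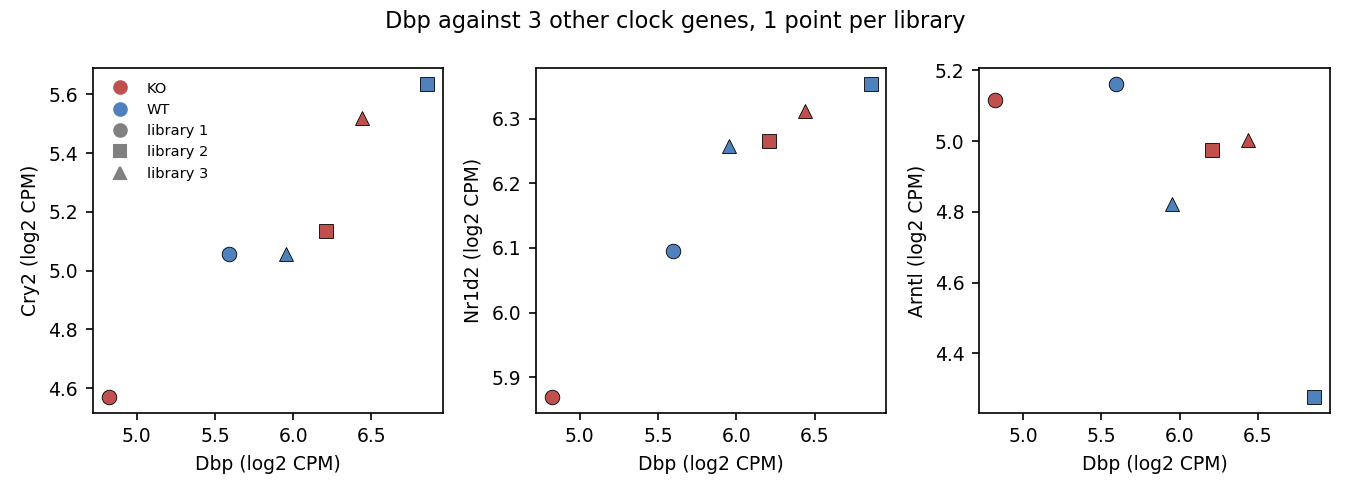
Log2 CPM of Cry2, Nr1d2 and Arntl against that of Dbp, 1 point per library, with KO libraries in red and WT libraries in blue and symbols for the library number. Cry2 and Nr1d2 rise with Dbp in all 6 libraries in the same order (rho = 1), while Arntl is lowest in WT library 2, where Dbp is highest.

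Among 10329 other genes with a mean of at least 1 FPKM, those most like Dbp by Pearson correlation of log2 CPM over the 6 libraries were Myl4 (r = 0.998), Unc5a (0.998), Sh2b3 (0.997) and Ift88 (0.997). Myl4, an atrial and embryonic myosin light chain gene, was at 3.72, 8.09 and 9.75 FPKM in KO muscle, against 5.40, 13.24 and 7.01 FPKM in WT muscle. Myl4 and Unc5a kept the library order of Dbp in FPKM too, but Sh2b3 and Ift88 did not. Sh2b3 was highest in KO library 1 (7.9 FPKM), where Dbp was lowest. Ift88 was at 1.55 FPKM in KO library 1 and 1.65 FPKM in WT library 2, and was lowest in WT library 3. Of the other clock genes, Hlf ranked 5, Bhlhe41 47, Ciart 161, Tef 496, Bhlhe40 1099, Usp2 1118 and Nfil3 10183 in this order. Of the members, Nr1d2 ranked 175, Cry2 241, Per2 1365, Per3 1593, Cry1 2608, Nr1d1 2833 and Per1 4367. Clock ranked 6317 and Arntl 8357. Many genes outside the clock thus followed Dbp more closely than Nr1d2 or Cry2 did on the log2 CPM scale. Ranks in FPKM are not given for Dbp or for Arntl. The most opposite to Dbp were Rtn4ip1 (r = -0.997), Camta1 (-0.996), Col4a1 (-0.994) and Myh11 (-0.994), the last pair being genes of basement membrane and smooth muscle. In FPKM Rtn4ip1, Col4a1 and Myh11 kept the reverse of the library order of Dbp. Camta1 did not, at 21.19 FPKM in KO library 1 and 24.11 FPKM in WT library 2. With so few libraries such values are common: 372 genes exceeded r = 0.95 with Dbp and 283 lay below -0.95. For Arntl the corresponding counts were 33 and 35. The genes most like Arntl were BC005561 (r = 0.992), the respiratory complex I subunit gene Ndufc2 (0.985), Yes1 (0.983) and Mrpl39 (0.982), and the most opposite were D10Wsu102e (-0.996), Mettl1 (-0.993), Hdgfl2 (-0.990) and Actr1a (-0.990). Usp2, a deubiquitinase gene under clock control, was the 88th most opposite to Arntl (r = -0.93).

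No gene of the wider clock pathway was called between the genotypes. Of 35 listed partners, nuclear receptors, kinases, ubiquitin ligases and co-regulators, 33 were tested and 0 passed by edgeR or by DESeq2. Their median log2 fold change was 0.0021, against 0.0046 over all genes tested. Tipin, a partner of Timeless, was at 3.90 ± 0.16 FPKM in KO muscle and 3.19 ± 0.04 FPKM in WT muscle (SD, n = 3 each). Its log2 fold change was 0.22 (SE 0.15). Its groups of libraries did not overlap, as was so for 9.18% of all genes tested by log2 CPM. Ppp1cb, Usp2, Npas2 and Tef were also among the genes of smallest p, with log2 fold changes of 0.19 (SE 0.12), -0.36 (SE 0.24), 0.58 (SE 0.41) and -0.30 (SE 0.21).

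Rhythmic output genes, which cycle in many organs or in muscle, gave 0 of 30 called by edgeR or by DESeq2 (median log2 fold change 0.02). By edgeR unadjusted p under 0.05, 2 were higher in KO muscle, Tbc1d1 and Pdk4, where 2.07% of all genes tested were. Tbc1d1, a regulator of glucose transporter traffic, was at 19.75, 10.10 and 11.04 FPKM in KO libraries, against 9.63, 7.46 and 7.54 FPKM in WT libraries (log2 fold change 0.70, SE 0.15, edgeR unadjusted p = 0.00179 and adjusted p = 0.994). Pdk4, the kinase that restrains pyruvate dehydrogenase, was at 148.62, 96.35 and 12.16 FPKM in KO muscle, against 25.57, 8.80 and 27.74 FPKM in WT muscle (log2 fold change 1.91, SE 0.76). KO libraries 1 and 2 were the highest and KO library 3 and WT library 2 the lowest for Pdk4, as for the slow fibre sums above, whose part was not tested. For the mitochondrial carrier gene Ucp3 the log2 fold change was 0.74 (SE 0.33), and for Tsc22d3 and Nampt, which cycle in many organs, it was -0.33 (SE 0.20) and 0.28 (SE 0.17).

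Per1 and Per2 also answer to glucocorticoids and to cyclic AMP through CREB, so other targets of both were read beside them. Of 20 glucocorticoid-responsive genes 0 were called by edgeR or by DESeq2, and their median was 0.10 on the log2 scale. By edgeR unadjusted p under 0.05, 2 were higher (Fbxo32 and Angptl4) and 0 lower in KO muscle. Of all genes tested 2.07% were higher and 1.48% lower by that measure. Sgk1, Zbtb16, Tsc22d3 and Cebpd had log2 fold changes of -0.31 (SE 0.15), 0.38 (SE 0.19), -0.33 (SE 0.20) and -0.49 (SE 0.30). Of 14 CREB-responsive genes 0 were called by edgeR and 1, Egr1, by DESeq2 (adjusted p = 6.44e-07). The KO mean was higher for 12 of the 14, where it was higher for 6530 of 12774 genes tested. Their median was 0.31 on the log2 scale. By log2 CPM 11 of the 14 were highest in KO library 1, where 29.9% of all genes tested were. By edgeR unadjusted p under 0.05, 3 of the 14 were higher and 0 lower, where 2.07% and 1.48% of all genes tested were. Egr1 was at 19.38, 12.98 and 10.46 FPKM in KO libraries, against 6.60, 5.01 and 5.71 FPKM in WT libraries. These groups did not overlap, as was so for 9.18% of all genes tested by log2 CPM. The 3 were Egr1, Junb and Arc, immediate early genes, with log2 fold changes of 1.22 (SE 0.16, edgeR adjusted p = 0.483), 0.62 (SE 0.17, adjusted p = 0.994) and 0.90 (SE 0.38, adjusted p = 0.994). Per1 and Per2, at -0.59 and -0.89 on the log2 scale, had lower means in KO muscle. So did 2 of the 14 CREB-responsive genes and 48.9% of all genes tested.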

How the data were processed

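Each of the 6 libraries had 1 table of 19458 genes. Per the file headers, the authors deposited read counts and FPKM values by gene. The counts they deposited are expected counts (26.2% to 27.5% per library are not whole), not normalized; FPKM corrects for transcript length and library depth. Per the submitters' processing notes, the tools were RSEM 1.2.12, HISAT2 2.0.4 and Bowtie2 2.2.5 and the build GRCm38; no annotation or strandedness is recorded there. RSEM shares out reads that match several transcripts, so overlapping genes are less certain.

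Expected counts were rounded, filtered by filterByExpr (minimum count 10), which left 12774 genes, scaled by TMM and tested by edgeR's two-sided quasi-likelihood F statistic (version 4.0.16 under R 4.3.3), Benjamini-Hochberg adjusted over all genes tested, threshold 0.05, no covariate. The SE of each log2 fold change is its size divided by the root of its F. Log2 CPM used a prior count of 2. Depth was 16212341 to 18672630 expected counts, and no 2 libraries agreed within counting noise (chi-square per degree of freedom at least 12.9).

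Same-numbered libraries were not taken as pairs: the correlation of their deviations from group means was 0.52, 0.18 and -0.12. Alternatives were the replicate block, each library left out, an unfiltered table, only genes averaging 5 FPKM or more, the Wald test of DESeq2 1.42.0 and its size factors alone, limma 3.58.1 on log2(FPKM + 1) and on voom values weighted by library quality, an adjusted p of 0.10, other make-ups of the phase score and a prior count of 0.5. Leaving out KO library 1 and WT library 2 together, and the FPKM scale for extremes and correlations, were chosen after seeing the data. Members and lists were chosen with earlier results of these data known. The tests of Dbp against the other members were not among the planned results. Named are all members, Tmem182, up to 6 genes of the smallest p of each list described, and the 4 genes most like and most opposite to Arntl and Dbp; genes in small counts and the Per1 ratio were named after their values were seen. A result of the pathway lists is not reported here. Gene positions come from GENCODE M21 and promoters from RefSeq.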

Additional observations from a re-analysis of the deposited data

How the results depend on the processing

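Core clock members called numbered 0 under all 15 alternatives, as did the other clock pathway genes. With only genes averaging 5 FPKM or more, no more than 7 members and 25 of those pathway genes were tested. Genes called in all numbered 1 by edgeR, 6 by DESeq2, 0 to 1 with 1 library left out, and 32 without KO library 1 and WT library 2, of which 0 were members. Tmem182 kept its direction throughout; with 1 library left out its log2 fold change was -5.26 to -4.75, and it was -5.30 without KO library 1 and WT library 2. It missed the threshold on leaving out KO library 2 (adjusted p = 0.0716) and on leaving out WT library 3 (adjusted p = 0.0529).

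With 1 library left out, log2 fold changes ran from 0.03 to 0.46 for Arntl, -0.56 to 0.19 for Dbp, -0.070 to 0.053 for Clock, -0.17 to 0.055 for Cry1, -0.40 to 0.068 for Cry2, -0.084 to 0.14 for Nr1d1 and -0.16 to 0.048 for Nr1d2, which all turned over except Arntl. Those of Per1 (-0.81 to -0.46), Per2 (-1.29 to -0.15) and Per3 (-0.75 to -0.29) did not. Library quality weights turned over Dbp (0.20), Cry2 (0.067) and Nr1d2 (0.026), and limma on log2(FPKM + 1) turned over Clock (0.049). Without KO library 1 and WT library 2 the values were -0.015 for Arntl, 0.54 for Dbp, 0.13 for Per2, 0.038 for Cry1, 0.28 for Cry2 and 0.11 for Nr1d2. Members with a lower KO mean numbered 8, and 4 to 9 with 1 library left out (4 without KO library 1, 6 without WT library 2). The cause was not tested.

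The numbers do not pair the libraries. With the replicate block 1 gene and 0 members were called, and Nr1d1 turned over (-0.0048).

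The phase score difference, KO minus WT, was -0.61 to -0.10 with 1 library left out and -0.65 to -0.32 over the other make-ups and scales, and 0.11 without both extreme libraries. KO library 1 was lowest and WT library 2 highest in all 7 versions of the score. Depth limits Per2 most, at 68 counts in KO library 1.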
